A study of Mus musculus with 6 samples.

Results

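Transforming growth factor beta (TGF-beta) signalling was examined through 4 genes in cultured airway smooth muscle cells of mice with excess beta2-adrenergic receptor: Tgfb2, which encodes a secreted ligand, Tgfbr1, which encodes the type I receptor kinase, Tgfbr3, which encodes the co-receptor betaglycan, and Pmepa1, a feedback inhibitor of the pathway. They are 4 of the 5755 named genes of the array, and all 6 of their probes among the 8734 listed are described. The genes were selected on their measured ratios in these same arrays, so those ratios are given as a description with no test.

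TGF-beta ligands are secreted in a latent form, and once released they bind a type II receptor that recruits and phosphorylates the type I receptor. The type I receptor then phosphorylates SMAD2 and SMAD3, which join SMAD4 and enter the nucleus. Betaglycan has no kinase of its own and presents ligand, TGF-beta2 above all, to the type II receptor. In airway smooth muscle the pathway is known for driving the production of extracellular matrix and contractile proteins. The beta2-adrenergic receptor, the target of inhaled bronchodilators, signals through cyclic AMP and protein kinase A, whose nuclear target CREB binds cyclic AMP response elements.

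Each of the 6 arrays is a competitive 2-colour hybridisation of RNA from transgenic 2AR-OE mouse cells, which overexpress the receptor, against RNA from nontransgenic (NTG) mouse cells. Both kinds of cell were grown from tracheal explants, with the pieces of a single trachea in a dish, in medium with 20% foetal calf serum, and RNA was taken at passages 8 to 10. More than 90% of the cells were smooth muscle by actin staining, per the labels. The transgenic sample was labelled with Cy5 for arrays 2A, 2B, 1A and 1B, and the dyes were swapped for arrays 2C and 1C, where it was labelled with Cy3. Arrays that share the number 2 or 1 in their titles are called set 2 and set 1; what the numbers stand for is not stated. The labels also give no strain, age, number of animals or transgene promoter, and nothing says that the arrays came from separate cultures, so a p-value here reflects only array-to-array spread, possibly technical.

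The values are log2 ratios whose direction the sources do not state. It is likely transgenic over nontransgenic, since transgenic RNA was in channel 1 of the majority orientation and is the test condition of the design; if the direction is the reverse, every sign and every "higher" or "lower" in the text turns. Both swapped columns were treated as having been turned to that direction; if they were not, ratios with the same sign in both orientations carry dye bias. Over all probes, arrays of 1 set and 1 orientation correlated with r from 0.561 to 0.697, and arrays of opposite orientation with r from 0.009 to 0.179. Array 1C had the widest spread, with an SD of 1.04 log2 units against 0.467 to 0.608 on the other arrays, and 63 of its probes lay at the table's floor, against 0 to 10 on the others. No probe of the 4 genes lay there. In a bulk ratio, fewer cells of a type and less RNA per cell cannot be told apart.

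The promoters of the ligand and the kinase receptor are shown because both genes had lower ratios and because the transgenic receptor's second messenger is cyclic AMP. The RefSeq table (GRCm38.p6) matched 2 of the 4 genes, Tgfb2 and Tgfbr1; Tgfbr3 and Pmepa1 are named only. The 250 bases before the annotated start are printed 5′ to 3′ in the gene's direction, with every match to a searched motif in capitals. Tgfb2 lies at chr1:186705990-186706239 on the minus strand, and the first listed start of Tgfbr1 at chr4:47352972-47353221 on the plus strand.
Tgfb2: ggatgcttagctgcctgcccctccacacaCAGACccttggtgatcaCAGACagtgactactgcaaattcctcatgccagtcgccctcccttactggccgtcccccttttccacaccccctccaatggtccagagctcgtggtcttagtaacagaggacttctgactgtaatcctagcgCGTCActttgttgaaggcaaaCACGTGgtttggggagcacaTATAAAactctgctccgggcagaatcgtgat
Tgfbr1: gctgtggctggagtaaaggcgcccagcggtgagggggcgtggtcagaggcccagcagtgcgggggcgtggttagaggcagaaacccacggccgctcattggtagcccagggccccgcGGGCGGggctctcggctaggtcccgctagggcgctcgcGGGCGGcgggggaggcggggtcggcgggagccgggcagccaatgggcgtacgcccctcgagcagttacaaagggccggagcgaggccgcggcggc

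The motifs named here were searched on both strands, and no 2 matches in these windows overlap, although the short cyclic AMP element is by construction part of the full one. The Tgfb2 window held the short cyclic AMP response element TGACG, read on the opposite strand as CGTCA, at bases -72 to -68 from the start. It also held the 5-letter SMAD element CAGAC at -221 to -217 and at -204 to -200, the E-box CACGTG at -51 to -46 and the TATA box TATAAA at -31 to -26. The printed Tgfbr1 window held the SP1 box GGGCGG at -133 to -128 and at -95 to -90. The full cyclic AMP response element TGACGTCA was in neither window. A second listed start of Tgfbr1, whose window is chr4:47385966-47386215 and is not printed, held CAGAC at -203 to -199 and no other searched motif. Of 32841 promoter windows of the same length in the table, 17.8% held TGACG, 1.55% TGACGTCA, 42.2% CAGAC, 6.02% CACGTG, 12.4% TATAAA and 32.7% GGGCGG. These matches describe letters only; binding was not measured.

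Tgfb2, the ligand, had log2 ratios of -1.06, -1.05 and -1.0 on arrays 2A, 2B and 2C and of -0.63, -0.91 and -1.29 on arrays 1A, 1B and 1C. All 6 lay below 0, and the set 2 values lay inside the range of set 1. The fitted log2 ratio was -1.03 ± 0.09 (SE, 6 arrays), a level 2.04-fold lower in transgenic than in nontransgenic cells.

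Tgfbr1, the type I receptor kinase that the ligand activates, had log2 ratios of -0.93, -0.75 and -0.88 on arrays 2A, 2B and 2C and of -0.65, -0.92 and -1.04 on arrays 1A, 1B and 1C. These were also below 0 on 6 of 6 arrays, with the smallest spread of the 3 low genes (SD 0.14 over 6 arrays, against 0.22 for Tgfb2 and 0.34 for Pmepa1). The fitted log2 ratio was -0.88 ± 0.07 (SE, 6 arrays), 1.85-fold lower in transgenic cells.

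Tgfbr3, the betaglycan co-receptor, went the other way. The mean of its 3 probes gave log2 ratios of 1.46, 1.46 and 1.28 on arrays 2A, 2B and 2C and of 1.39, 1.52 and 1.15 on arrays 1A, 1B and 1C. Every array had a higher level in transgenic cells, and the lowest value in either set was on the dye-swapped array. The fitted log2 ratio was 1.34 ± 0.06 (SE, 6 arrays), 2.53-fold higher in transgenic cells. On each array the log2 ratio of Tgfbr3 exceeded that of Tgfbr1 by 2.04 to 2.43 (mean 2.24, SD 0.15) and that of Tgfb2 by 2.02 to 2.53 (mean 2.37, SD 0.19).

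Pmepa1 encodes a membrane protein that is induced by TGF-beta and binds SMAD2 and SMAD3, limiting their activation by the receptor. Its probe had log2 ratios of -1.01, -0.84 and -1.10 on arrays 2A, 2B and 2C and of -0.94, -1.15 and -1.79 on arrays 1A, 1B and 1C. All 6 were below 0, and array 1C lay apart from the other arrays. The fitted log2 ratio was -1.22 ± 0.11 (SE, 6 arrays), 2.32-fold lower in transgenic cells, and -1.04 without array 1C. Without that array the fitted log2 ratios of Tgfb2, Tgfbr1 and Tgfbr3 were -0.96, -0.84 and 1.37.

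**Figure D1:**
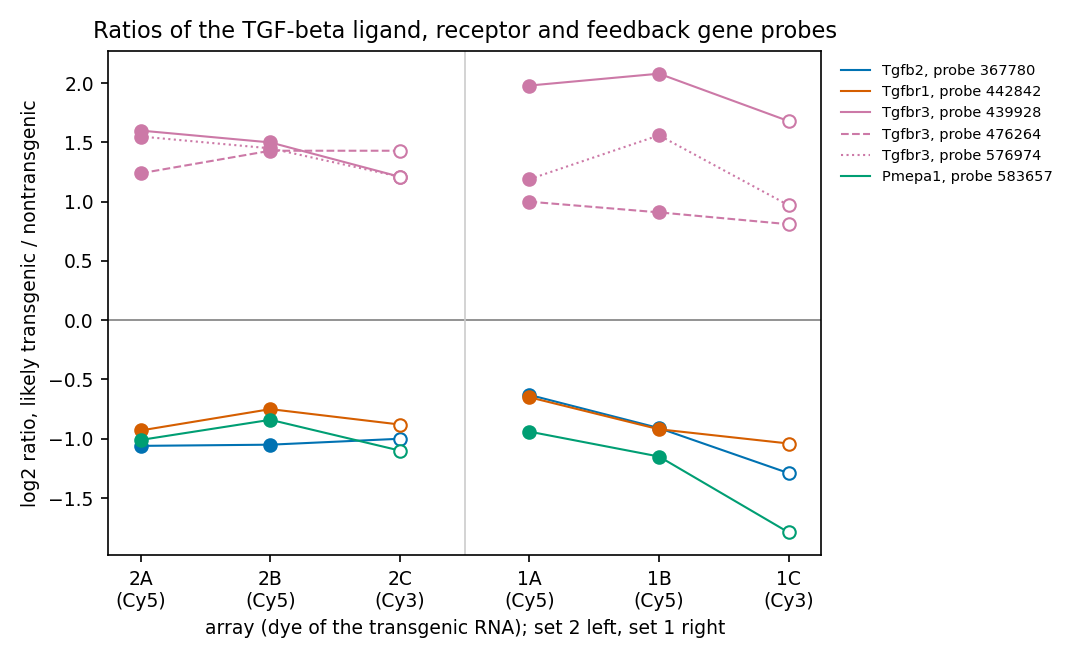
Log2 ratio (y axis, likely transgenic over nontransgenic) of each of the 6 probes on each array (x axis, with the dye of the transgenic RNA), set 2 left and set 1 right. Filled points have transgenic RNA in Cy5 and open points in Cy3. The 3 Tgfbr3 probes lie between 0.81 and 2.08, and the probes of Tgfb2, Tgfbr1 and Pmepa1 between -1.79 and -0.63.

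Among the 6807 rows fitted, whose median log2 ratio was 0.002, Tgfbr3 ranked 32 from the highest, while Pmepa1 ranked 49, Tgfb2 68 and Tgfbr1 93 from the lowest. Of the 6 probes of the 4 genes, 3 were higher on all 6 arrays and 3 were lower on all 6. Of the 8430 probes with a value on every array, 11.0% were higher and 8.22% lower on all 6; since the ratios themselves chose the genes, nothing is read from that contrast. The ratios of the 3 low genes stood close together. Tgfb2 minus Tgfbr1 ranged from -0.30 to 0.03 over the arrays, Pmepa1 minus Tgfb2 from -0.50 to 0.21, and Pmepa1 minus Tgfbr1 from -0.75 to -0.08. The order of Tgfb2 and Pmepa1 thus changed between arrays, and Pmepa1 was below Tgfbr1 on all 6.

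The 3 Tgfbr3 probes measured the same direction with different sizes. Probe 439928 had a fitted log2 ratio of 1.62 ± 0.12, probe 476264 of 1.13 ± 0.12 and probe 576974 of 1.26 ± 0.08 (SE, 6 arrays each), that is 3.07-fold, 2.19-fold and 2.40-fold higher in transgenic cells. Probes 439928 and 576974 are annotated to the same expressed sequence tag and may share sequence, whereas probe 476264 is annotated to the mRNA. On these arrays the spacing of the probes was not the same in the 2 sets. Probe 439928 exceeded probe 476264 by -0.22 to 0.35 on the set 2 arrays, against 0.87 to 1.17 on the set 1 arrays. It exceeded probe 576974 by 0.00 to 0.05 on the set 2 arrays, against 0.52 to 0.79 on the set 1 arrays. Whether the probes differ from each other, or their spacing between sets, was not tested.

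The difference between sets and the dye effect were tested with limma over all 8500 probes, since neither contrast is the one that chose the genes. The choice is not fully independent of either, because a gene that differed much between sets or between dye orientations was less likely to be picked. Probe 439928 had log2 ratios of 1.60, 1.5 and 1.21 on arrays 2A, 2B and 2C, against 1.98, 2.08 and 1.68 on arrays 1A, 1B and 1C. The sets did not overlap, and set 2 minus set 1 was -0.48 ± 0.08 (SE), with a limma p of 0.00311 and an adjusted p of 0.0719. The difference was -0.48 in the Cy5 orientation and -0.48 in the Cy3 orientation.

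Probe 476264 moved the opposite way. Its log2 ratios were 1.24, 1.43 and 1.43 on arrays 2A, 2B and 2C, against 1.00, 0.91 and 0.81 on arrays 1A, 1B and 1C. Again the sets did not overlap; set 2 minus set 1 was 0.46 ± 0.11 (SE), with a limma p of 0.00942 and an adjusted p of 0.0961. Probe 576974, at 1.55, 1.45 and 1.21 in set 2 and 1.19, 1.56 and 0.97 in set 1, overlapped between sets (0.16 ± 0.13, SE, limma adjusted p = 0.493). With the 3 probes averaged, the set difference of Tgfbr3 was 0.05 ± 0.09 (SE, limma adjusted p = 0.765).

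**Figure D2:**
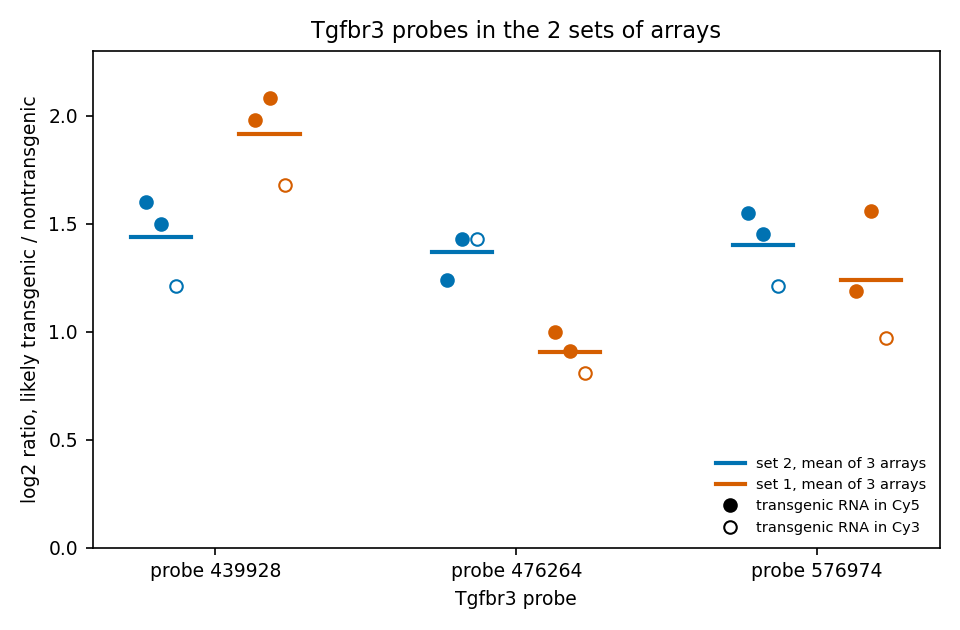
Log2 ratio (y axis, likely transgenic over nontransgenic) of the 3 Tgfbr3 probes (x axis) on the arrays of set 2 (left in each pair) and set 1; horizontal lines are means of 3 arrays, filled points have transgenic RNA in Cy5 and open points in Cy3. Probe 439928 averaged 1.44 in set 2 and 1.92 in set 1, probe 476264 averaged 1.37 in set 2 and 0.91 in set 1, and probe 576974 averaged 1.40 in set 2 and 1.24 in set 1.

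For the 3 low genes the sets overlapped. Tgfb2 averaged -1.04 in set 2 and -0.94 in set 1 (difference -0.09 ± 0.17, limma adjusted p = 0.766), and Tgfbr1 -0.85 in set 2 and -0.87 in set 1 (0.02 ± 0.12, limma adjusted p = 0.946). Pmepa1 averaged -0.98 in set 2 and -1.30 in set 1 (0.31 ± 0.16, limma adjusted p = 0.316). In all, 0 of the 6 probes passed an adjusted p of 0.05 for the set difference, where 0.0118% of all probes did, and 2 of the 6 had an unadjusted p below 0.05, where 24.5% of all probes did. A missed threshold does not show that the sets were alike: with 3 arrays a set, the errors were 0.08 to 0.17 log2 units. How many of all probes or genes had sets without overlap was not counted. Nothing is therefore read from a lack of overlap for any probe or gene described in the text.

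The dye term, Cy5 over Cy3, lay between 0.01 and 0.23 log2 units for the 6 probes. Its largest value was that of Pmepa1 (0.23 ± 0.11, SE, limma adjusted p = 0.320), followed by Tgfbr3 probe 576974 (0.18 ± 0.08, SE, limma adjusted p = 0.317). By limma, 0 of the 6 probes passed an adjusted p of 0.05 and 0 an unadjusted one, where 0% and 18.2% of all probes did. Since the choice of genes favoured ratios alike in both orientations, nothing is read from that contrast. Without array 2C the Pmepa1 dye term was 0.40 ± 0.09 (SE), and without array 1C it was 0.06 ± 0.09 (SE). Each of these fits leaves 1 array of the Cy3 orientation, so a dye effect and the effect of that array cannot be told apart. Pmepa1 averaged -0.99 over arrays of the Cy5 orientation and -1.45 over those of the Cy3 orientation. The gene was chosen for its low ratios on these arrays, so nothing is read from their presence in both orientations.

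The genes whose ratios over the 6 arrays came nearest to those of the 4 genes were sought among 5610 genes with values on every array, by root mean square difference in log2 units. Col5a1, a fibrillar collagen chain, was nearest to Tgfbr1 (0.088) and to Tgfb2 (0.134). Tgfbr1 was followed by Fn1, which encodes fibronectin (0.164), and Tpgs2 (0.205). Tgfb2 was followed by Slc5a3, an inositol transporter (0.153), and Lrig1, an inhibitor of growth factor receptors (0.164). Pmepa1 had Col11a1, another collagen chain (0.163), Lrig1 (0.167) and Slc5a3 (0.169). The ratios of these genes were all below 0, down to -1.59 on array 1C for both Lrig1 and Slc5a3.

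Tgfbr3 had Arid5b, a DNA-binding regulator, at 0.087, then the thrombospondin Thbs3 at 0.243 and Tbc1d2b at 0.282. Arid5b had log2 ratios of 1.48, 1.33 and 1.28 on arrays 2A, 2B and 2C and of 1.32, 1.41 and 1.04 on arrays 1A, 1B and 1C. Tgfb2 and Tgfbr1 themselves lay 0.178 apart, with 3 genes nearer to Tgfb2 than Tgfbr1 was. Tgfb2 and Pmepa1 lay 0.278 apart, with 13 genes nearer to Tgfb2 than Pmepa1 was. Tgfbr1 and Pmepa1 lay 0.360 apart, with 52 genes nearer to Tgfbr1 than Pmepa1 was. These genes were chosen on the same ratios, so nothing is read from their closeness. All these profiles share the same arrays. The 3 nearest genes of each of the 4 make 12 pairings over 9 different genes; without array 1C, 6 of the 12 pairings remained.

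Of 104 other genes listed for signalling by TGF-beta and its relatives, 38 could be tested, and 4 (10.5%) passed a limma adjusted p of 0.05: 1 was higher and 3 were lower in transgenic cells. Over all 6807 rows 484 (7.11%) passed, 4.03% higher and 3.09% lower, so the share of these 38 lies near the background. The 4 described genes, picked for their ratios, are not among the 38, so this share does not describe the pathway as a whole. The median log2 ratio of the 38 was -0.01, with 17 above 0 and 21 below. Without array 2C, 11 of the 38 and 1689 of all rows passed; without array 1B, 2A or 1C 2 of the 38 did, and without array 2A 169 of all rows did. The ligands Tgfb1 and Tgfb3, the type II receptor Tgfbr2, Smad2, and the inhibitory Smad6 and Smad7 were not analysed here.

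Among the listed ligands, 1 of 4 fell: Bmp1, which despite its name is a metalloprotease that cuts procollagens and frees latent TGF-beta. It had log2 ratios of -0.42, -0.41 and -0.78 in set 2 and -0.34, -0.55 and -0.61 in set 1. It was lower on 6 of 6 arrays (-0.56 ± 0.07, SE, limma adjusted p = 0.00962), and each of its 3 probes was negative (-0.46, -0.73 and -0.50). Bmp5, Bmp6 and Gdf10, the signalling ligands of the list, had values of -0.17, -0.02 and -0.07.

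None of 9 latency and activation genes passed by limma, with 3 at an unadjusted p below 0.05, where 27.7% of all rows were. Ltbp1, which tethers latent TGF-beta to the matrix, separated by set: 0.23, 0.23 and 0.03 in set 2, against -0.48, -0.67 and -0.43 in set 1. Its fitted log2 ratio was -0.19 ± 0.16 (SE, limma adjusted p = 0.485), and its set difference of 0.69 had a limma adjusted p of 0.0746. None of 4 other receptors passed by limma, with 1 at an unadjusted p below 0.05. That receptor was Acvr1, with a fitted log2 ratio of -0.44 ± 0.12 (SE, limma adjusted p = 0.0831). It lay at -0.68, -1.10, -1.23 and -1.24 on arrays 1A, 1B, 2A and 2B. On the dye-swapped arrays 1C and 2C it lay at -0.09 and 0.46. Acvrl1, a type I receptor of endothelium, had a fitted log2 ratio of 0.08 ± 0.08 (SE, limma adjusted p = 0.549).

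Eng encodes endoglin, the closest relative of betaglycan. It had log2 ratios of -0.15, 0.05 and 0.02 in set 2 and -0.49, -1.09 and -1.27 in set 1, with no overlap between the sets. The fitted value was -0.52 ± 0.23 (SE, limma adjusted p = 0.200), -0.84 without array 2C (adjusted p = 0.0492) and -0.20 without array 1C (adjusted p = 0.695). The co-receptors Eng and Tgfbr3 had fitted values of opposite sign, with the set 2 values of Eng near 0.

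Of 8 SMADs and signalling partners, Map3k7 fell. It encodes TAK1, a kinase of the SMAD-independent branch, and had log2 ratios of -0.42, -0.46 and -0.61 in set 2 and -0.40, -0.45 and -1.06 in set 1 (-0.63 ± 0.08, SE, limma adjusted p = 0.0110). Smad3, which the Tgfbr1 kinase phosphorylates, was below 0 on 6 of 6 arrays, with -0.88, -1.08 and -0.52 in set 2 and -0.26, -0.82 and -0.21 in set 1. It missed the threshold (-0.56 ± 0.13, SE, limma adjusted p = 0.0551) and passed it without array 1A (adjusted p = 0.0327). The Smad3 mean took in different probes in the 2 sets, as 1 of its 3 probes had values on the set 2 arrays alone. Its other probes had fitted log2 ratios of -0.27 (limma adjusted p = 0.251) and -0.64 (adjusted p = 0.0425). Smad4, the common partner, had a fitted log2 ratio of -0.05 ± 0.07 (SE, limma adjusted p = 0.660).

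Of 10 other intracellular inhibitors, 1 rose and 1 fell. Tgif1, a transcriptional co-repressor of SMAD2 and SMAD3, rose, with log2 ratios of 0.58, 0.45 and 0.22 in set 2 and 0.73, 0.67 and 0.48 in set 1 (0.48 ± 0.07, SE, limma adjusted p = 0.0194). Wwp1, a ubiquitin ligase that acts on the type I receptor, fell, with -0.49, -0.93 and -0.60 in set 2 and -0.52, -0.52 and -1.57 in set 1 (-0.85 ± 0.15, SE, limma adjusted p = 0.0269). Neither call held when any array other than 2C was left out (adjusted p from 0.0540 to 0.0769 for Tgif1 and from 0.0678 to 0.0791 for Wwp1), and Wwp1 lost it with the set as a random block (adjusted p = 0.108).

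The SMAD co-repressors Ski and Skil did not pass. Ski had a fitted log2 ratio of 0.17 ± 0.08 (SE, limma adjusted p = 0.223). Skil had -0.58, -0.79 and -0.67 in set 2 and -0.58, -0.27 and 3.00 in set 1, where the value of array 1C alone was above 0; the fitted value was 0.31 ± 0.46 (SE, limma adjusted p = 0.690), 1.22 without array 2C (adjusted p = 0.00313), -0.61 without array 1C (adjusted p = 0.0676) and -0.56 over the 4 arrays of the Cy5 orientation (adjusted p = 0.0275). None of the 3 secreted antagonists passed by limma; all 3 had an unadjusted p below 0.05, as did 27.7% of all rows: Twsg1 at 0.91, Sostdc1 at 0.44 and Fstl1 at 0.28.

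**Figure D3:**
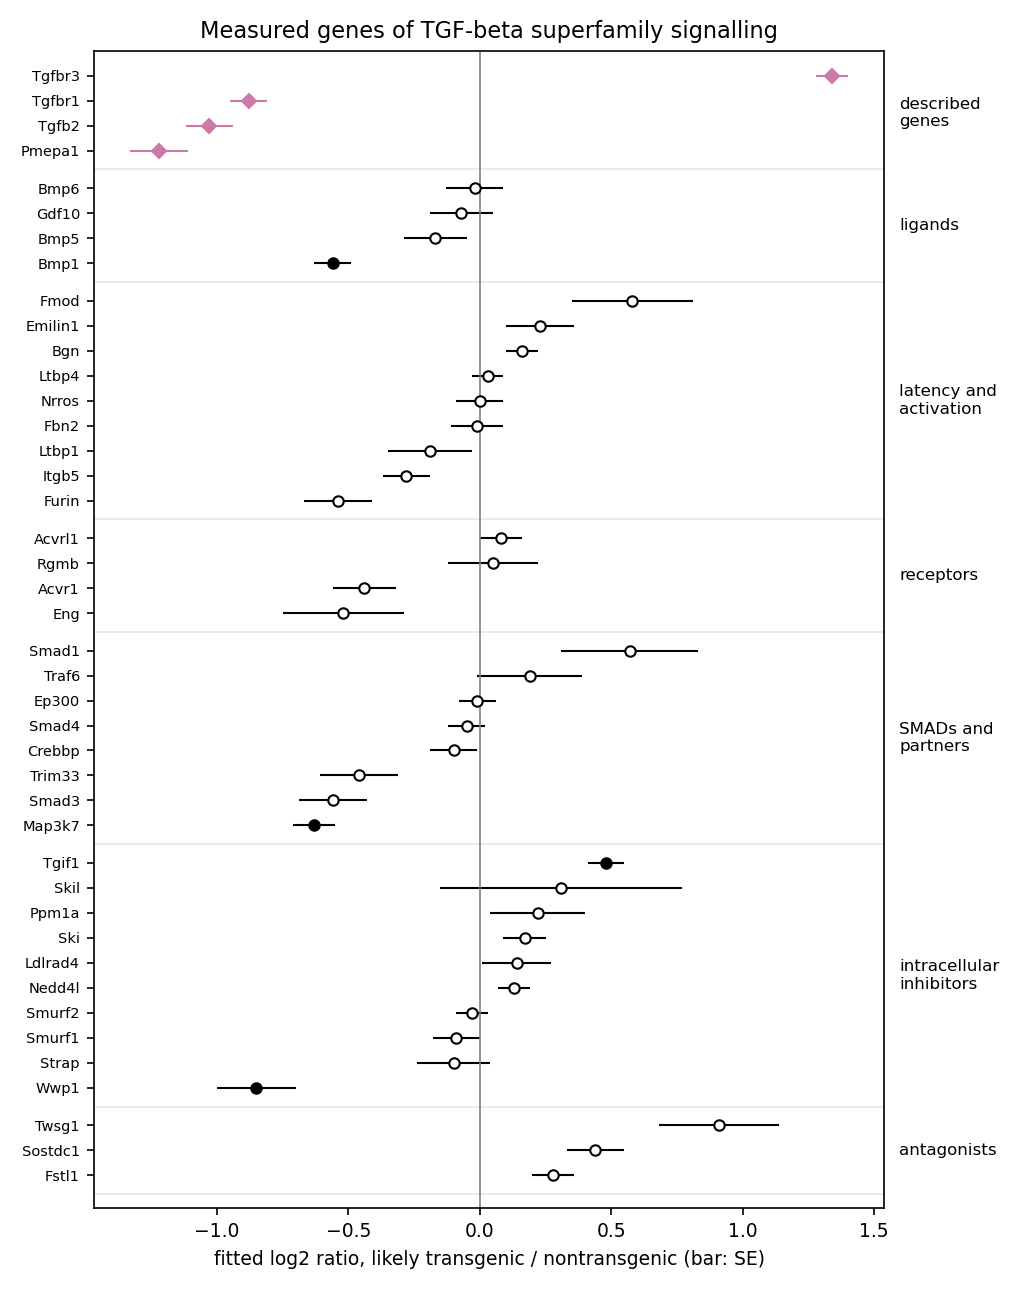
Fitted log2 ratio (x axis, likely transgenic over nontransgenic) with its SE from 6 arrays for the 4 described genes (diamonds, untested) and 38 other pathway genes (circles), grouped by role down the y axis. Filled circles passed a limma adjusted p of 0.05: Tgif1 above 0, and Bmp1, Map3k7 and Wwp1 below 0.

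Genes that TGF-beta is known to induce or repress were listed separately; the list was written with earlier results of these data known, so its counts are descriptive. Of 46 listed, 26 could be tested, and 13 (50.0%) passed a limma adjusted p of 0.05, 4 higher and 9 lower in transgenic cells. The median log2 ratio of the 26 was -0.27, against 0.002 over all rows. Over all rows 7.11% passed, 4.03% higher and 3.09% lower. Without array 2A, 2B or 1C, 8 of the 26 passed, and 10 passed with the set as a random block.

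Among the genes that fell, Col3a1, a fibrillar collagen, had -1.24, -1.40 and -1.18 in set 2 and -0.96, -1.07 and -1.66 in set 1 (-1.29 ± 0.10, SE, limma adjusted p = 0.00411). Col5a1 had -0.96, -0.86 and -1.01 in set 2 and -0.68, -1.03 and -1.08 in set 1 (-0.96 ± 0.07, SE, limma adjusted p = 0.00411). Fn1, fibronectin, kept within a narrow range, -0.90 to -0.76 over the 6 arrays (-0.83 ± 0.06, SE, limma adjusted p = 0.00411). The integrin subunit Itgb3, which pairs in a receptor for fibronectin and latent TGF-beta, ranged from -1.36 to -0.56 (-1.0 ± 0.08, SE, limma adjusted p = 0.00411).

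Igfbp3, which binds insulin-like growth factors, ranged from -1.42 to -0.84 (-1.11 ± 0.09, SE, limma adjusted p = 0.00411). Cdkn1a, the cell cycle inhibitor p21, ranged from -1.12 to -0.40 (-0.72 ± 0.11, SE, limma adjusted p = 0.0188), and lost the call with the set as a random block (adjusted p = 0.0744) and without array 1B, 2A, 2B or 1C (adjusted p from 0.0606 to 0.0686). The other 3 genes that fell, Col5a2, Timp3 and Cdh2, had fitted log2 ratios of -0.56, -0.55 and -0.46. Timp3 lost the call with the set as a random block (limma adjusted p = 0.115) and without array 1A, 1B, 2A or 2B (0.0676 to 0.102). Cdh2 lost it without array 2A (limma adjusted p = 0.0541) or 2B (0.0527), and Col5a2 without array 1C. Col1a1, another fibrillar collagen of the list, did not pass: it had 0.24, -0.16 and -1.01 in set 2 and -0.61, -0.52 and -3.28 in set 1 (-1.21 ± 0.31, SE, limma adjusted p = 0.0752). The matrix and adhesion genes Eln (-0.31), Cdh11 (-0.04) and Itga5 (-0.45), and the growth genes Igfbp5 (-0.31) and Myc (-0.23), also missed the threshold. So did Ccn1 (0.66, above 0 on 6 of 6 arrays), Tgfbi (0.20) and Snai1 (0.16), with fitted values above 0. Loxl2 (-0.17), Tpm1 (-0.16) and Bhlhe40 (-0.03) did not pass either.

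Other TGF-beta responsive genes rose, among them Lox (0.62), which crosslinks collagen, and the contractile gene Cnn1 (0.59). Lox lost the call without array 1B, 2A or 2B (limma adjusted p from 0.0511 to 0.061) and without array 1C. Cnn1 lost it whenever an array other than 2C was left out. Tnc, the matrix glycoprotein tenascin C, had 1.22, 1.23 and 1.39 in set 2 and 2.03, 1.69 and 1.79 in set 1 (1.57 ± 0.14, SE, limma adjusted p = 0.00450). Vcl, the adhesion protein vinculin, had 0.84, 0.87 and 0.86 in set 2 and 1.54, 1.45 and 1.41 in set 1 (1.15 ± 0.14, SE, limma adjusted p = 0.0110; 0.0568 without array 1C). Both were higher on 6 of 6 arrays with all set 2 values below those of set 1; their set differences had limma adjusted p of 0.0984 and 0.0724. Ccn2, the connective tissue growth factor, had opposite signs in the sets, -0.37, -0.25 and -0.40 in set 2 and 0.63, 0.44 and 0.27 in set 1. Its fitted log2 ratio was 0.02 ± 0.18 (SE, limma adjusted p = 0.941), and its set difference of -0.79 had a limma adjusted p of 0.0724.

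**Figure D4:**
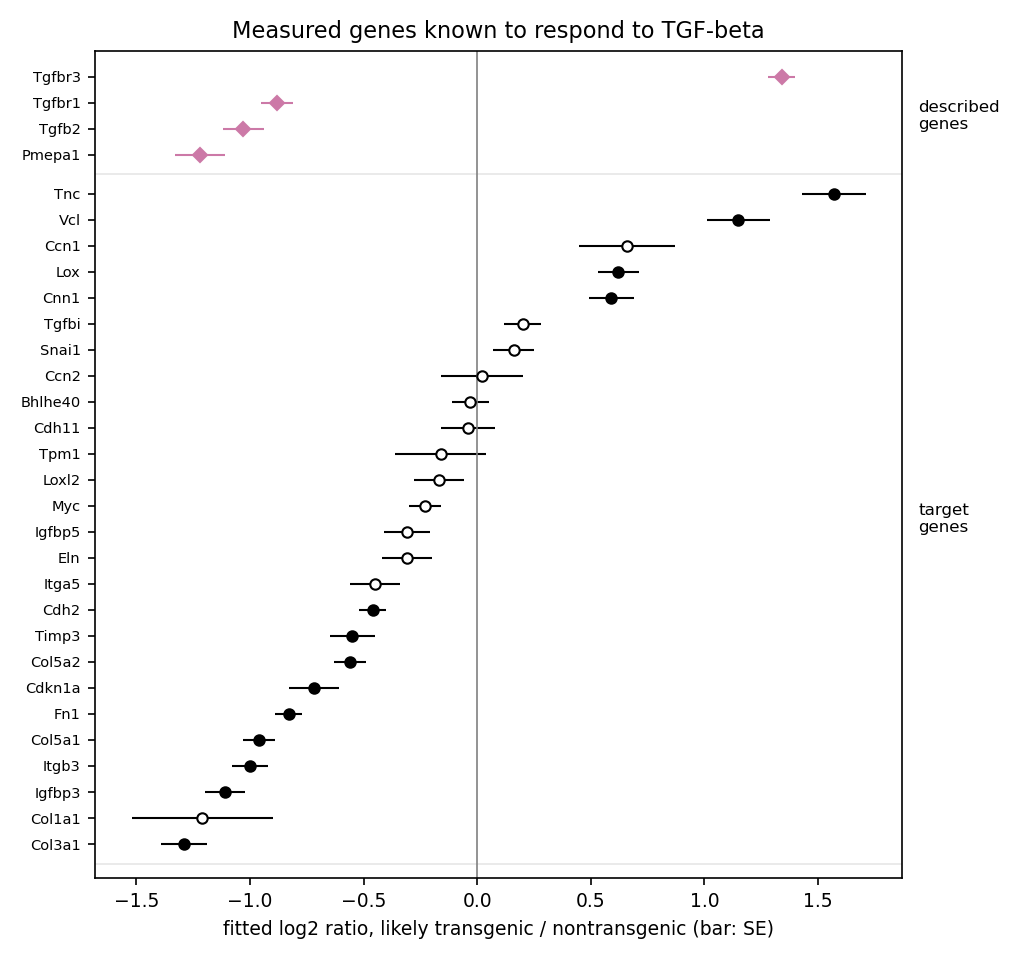
Fitted log2 ratio (x axis, likely transgenic over nontransgenic) with its SE from 6 arrays for the 4 described genes (diamonds, untested) and the 26 measured genes known to respond to TGF-beta (circles, down the y axis). Filled circles passed a limma adjusted p of 0.05; they run from Tnc at 1.57 to Col3a1 at -1.29.

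Markers of the cell types that a tracheal explant can hold were read beside these ratios. Ratios carry no level, so the presence of a cell type could not be checked, and the defining smooth muscle genes Acta2, Myh11 and Tagln were not analysed here. Across all rows 7.11% passed. Of 3 tested smooth muscle markers, Cnn1, which is also on the target list, rose (0.59), while Cald1 (-0.12) and Smtn (-0.05) did not pass; the list median was -0.05. Of 7 fibroblast markers 2 rose, Thy1 (2.73 ± 0.21, SE) and Mfap5 (0.81 ± 0.07, SE), with a list median of 0.70; Col1a1 (-1.21), Pdgfra (-0.02), Col14a1 (0.07), Lum (0.70) and Dpt (1.67) did not pass. Of 4 epithelial markers Cdh1 rose (0.32 ± 0.06, SE; list median 0.13), and of 6 cartilage markers Col11a1 fell (-1.10 ± 0.09, SE; list median -0.20). Cnn1 and Cdh1 lost the call with the set as a random block (adjusted p = 0.0602 and 0.101) and whenever an array other than 2C was left out. None of 5 endothelial or 5 leukocyte markers passed by limma, with 3 and 2 at an unadjusted p below 0.05 (27.7% of all rows) and medians of -0.37 and -0.17. The part of cell type mixture in the ratios of the 4 genes was not tested.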

How the data were processed

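The labels' protocols describe cDNA labelled with Cy3 or Cy5 and competing for printed slides. The values deposited by the authors are log2 ratios, 1 for each probe on an array, already centred near 0; the scanner, background correction, normalization and ratio direction: not given in the sources used here. Spot intensities were not used, so spot brightness is unknown; precision rests on the number of arrays and the spread between them.

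Of 8734 probes, the platform annotation gave 1 symbol to 7540, several to 14 and none to 1180; 7493 matched the RefSeq gene table by Entrez ID. Probes of 1 symbol were averaged per array. Rows needed values on at least 4 arrays and in both orientations, which left 6807 rows, or 8500 probes fitted singly. limma 3.58.1 (R 4.3.3; lmFit, eBayes) fitted a transgene and a dye coefficient, and in a separate fit a set coefficient; Benjamini-Hochberg adjusted p-values run over all rows, with a threshold of 0.05. The fit was also run on simulated data with independent arrays. That run cannot speak for data in which arrays of a set depend on each other. Python 3.11.15, pandas 2.3.3 and matplotlib 3.10.9 did the rest.

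The 4 genes and all lists were chosen with earlier results of these data known. Named were all their probes, the listed genes past the threshold (the 8 largest of the targets), a fixed set of core pathway genes and the 3 nearest genes each. Other list members and markers that are named were chosen after their values were seen. Alternatives changed the arrays, dye term, direction of swapped columns, floor, scaling, weights, variance, probe averaging and treatment of sets.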

Additional observations from a re-analysis of the deposited data

Results flagged for a closer look

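Of 33 probes and genes examined, 3 had 1 array far from the other 5 by Dixon's criterion, which chance meets in about 1 in 20 groups, and all 3 were on the dye-swapped array 1C. Pmepa1 probe 583657 was at -1.79 there, against -1.15 to -0.84 on the other arrays. Map3k7 was at -1.06, against -0.61 to -0.40. Skil was at 3.00, against -0.79 to -0.27. The 33 do not take in every gene named above. Among those left out, Dpt was at -1.01 on array 1B, against 1.83 to 2.27 on the other arrays. Col1a1, also left out, was at -3.28 on array 1C, against -1.01 to 0.24 on the others. Array 1C also had the widest spread of ratios and the most probes at the floor; its part in these values was not tested.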

How the results depend on the processing

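The 4 genes were chosen on their ratios, and each had 1 sign on all 6 arrays. Leaving out or reweighting arrays therefore could not reverse a direction, and some alternatives could not move a fitted value at all. Over 18 alternatives with the swapped columns left as deposited, the log2 ratios kept their direction and moved by less than 1 SD between arrays. These ratios ran from -1.10 to -0.91 for Tgfb2, -0.92 to -0.81 for Tgfbr1, -1.42 to -0.99 for Pmepa1 and 1.26 to 1.46 for Tgfbr3. With the swapped columns turned, they were 0.12 for Tgfb2, 0.07 for Tgfbr1, 0.23 for Pmepa1 and 0.12 for Tgfbr3 (0.17, 0.01 and 0.18 by probe). That setting also reversed Bmp1 (0.13), Map3k7 (0.20), Wwp1 (0.23), Col3a1 (0.13), Igfbp3 (0.07), Itgb3 (0.29), Col5a1 (0.08), Fn1 (0.02), Cdkn1a (0.08) and Tnc (-0.02), and left 0 pathway, 0 target and 0 marker genes and 1 row past the limma threshold, with 6, 5, 8 and 1242 at an unadjusted p below 0.05. Which direction the deposited swapped columns have is not stated in the sources used here.

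The main counts were 4 pathway genes, 13 target genes, 5 marker genes and 484 rows. Leaving out each array gave 2 to 11, 8 to 16, 3 to 9 and 169 to 1689. Each set averaged first gave 0 of each by limma (9, 16, 10 and 728 at an unadjusted p below 0.05). The set as a random replicate block gave 10 target genes, 3 marker genes and 197 rows; array weights gave 2 pathway genes, 3 marker genes and 159 rows. The arrays with transgenic RNA in Cy5 gave 9 pathway genes, 8 marker genes and 1049 rows. No dye term gave 7 pathway genes and 460 rows. Probes tested singly gave 9 of 60 pathway probes, in 6 genes, and 604 of all 8500 probes. Fits of set 2 alone (9 pathway genes, 907 rows) and set 1 alone (7 pathway genes, 8 marker genes, 1057 rows) were added after seeing the data. Pairings with a nearest gene that remained numbered 6 to 11 of 12 with 1 array left out. Every ratio already pairs both RNAs on an array.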
